A study of Mus musculus with 6 samples.

Results

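Respiratory complex I is the enzyme of the inner mitochondrial membrane that takes electrons from NADH, passes them to ubiquinone and pumps protons as it does so. It is shaped like an L. A peripheral arm reaches into the matrix and holds the NADH-binding module, where electrons enter, and the quinone module, where they leave, and a membrane arm carries the proton-pumping machinery. Mitochondrial DNA encodes some of the membrane subunits (the mt-Nd messages), and all other subunits come from nuclear genes whose protein products are imported and built in with the help of assembly factors. Heart muscle is rich in this enzyme, since it makes most of its ATP by oxidative phosphorylation.

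The nuclear subunit genes were taken as every listed gene whose name starts with Ndufa, Ndufb, Ndufc, Ndufs or Ndufv followed by a digit, which leaves out the assembly factors named Ndufaf and the acyl carrier protein gene Ndufab1. The rule found 39 genes among 25361 listed, and 38 of them had enough counts to be tested, among 8531 genes tested in all. The remaining member, Ndufb11b, had 0 counts in each of the 6 libraries, where a count of 0 allows up to 3 counts per library (1.14 to 1.35 CPM, counting error only). Of the 38, 36 are subunits of the enzyme. The others are Ndufa4, named as a complex I gene although its protein is now placed with cytochrome c oxidase, and its paralogue Ndufa4l2, a gene induced by low oxygen.

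RNA came from hearts of male C57BL/6N mice labelled WT and 12 weeks old, collected after 6 weeks: 3 mice given ISO+L-NAME and 3 untreated control mice. The series title calls the treated mice a model of HFpEF, a form of heart failure. L-NAME blocks nitric oxide synthase, while ISO is not spelled out in the labels, and the sources used here give neither dose nor route. Libraries read the 3′ ends of polyadenylated messages and held 2217974 to 2637364 counts each, so counts were not divided by message length. How evenly different messages were captured was not tested. Levels below are CPM, counts scaled to a common library size that was adjusted by the trimmed mean of M-values (TMM). Each change is a log2 ratio, treated over control, ± SE, and adjusted p comes from the quasi-likelihood test of edgeR, with Benjamini-Hochberg adjustment over all 8531 genes, with a threshold of 0.05. Cardiomyocyte markers were abundant in every library, with a sum of 53430 to 57640 CPM over 10 genes in ISO+L-NAME hearts and 60110 to 62840 CPM in control hearts.

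With TMM scaling, several nuclear complex I messages were lower in treated hearts: Ndufa7, Ndufa3, Ndufa13, Ndufs1, Ndufs4, Ndufb8, Ndufa5 and Ndufv1, with changes of -31.6% to -21.2%. Of 38 members tested, 8 fell, 0 rose and 30 did not pass, where 2.68% of all tested genes fell and 3.41% rose. No member was higher at an unadjusted p under 0.05 either, and DESeq2 and limma-voom called 0 higher. At that unadjusted level 15 were lower in edgeR, and the share of all genes there was not counted. The median log2 change of the members was -0.19, against -0.01 over all genes tested, and 34 of 38 members lay below 0, as did 50.9% of all genes. The direction of the family depends on the scaling: with library sizes set to all counts, including those of the mitochondrial genome, the median of the members was 0.12, and that of all genes was 0.30.

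The members were among the more abundant messages of the heart. The median level of the 38 was 352 CPM, against 16.1 CPM over all tested genes, and 37 of them exceeded 100 CPM, as did 9.13% of all tested genes. The shares of all tested genes set beside counts of members are therefore not shares at a like level, which were not counted. The highest was Ndufa5, with a mean of 882 CPM over the 6 libraries, and the lowest tested was Ndufa4l2, with 6.05 CPM. Ndufa5, Ndufb8 and Ndufv3 held the top places, in that order, in ISO+L-NAME hearts and in control hearts alike.

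**Figure D1:**
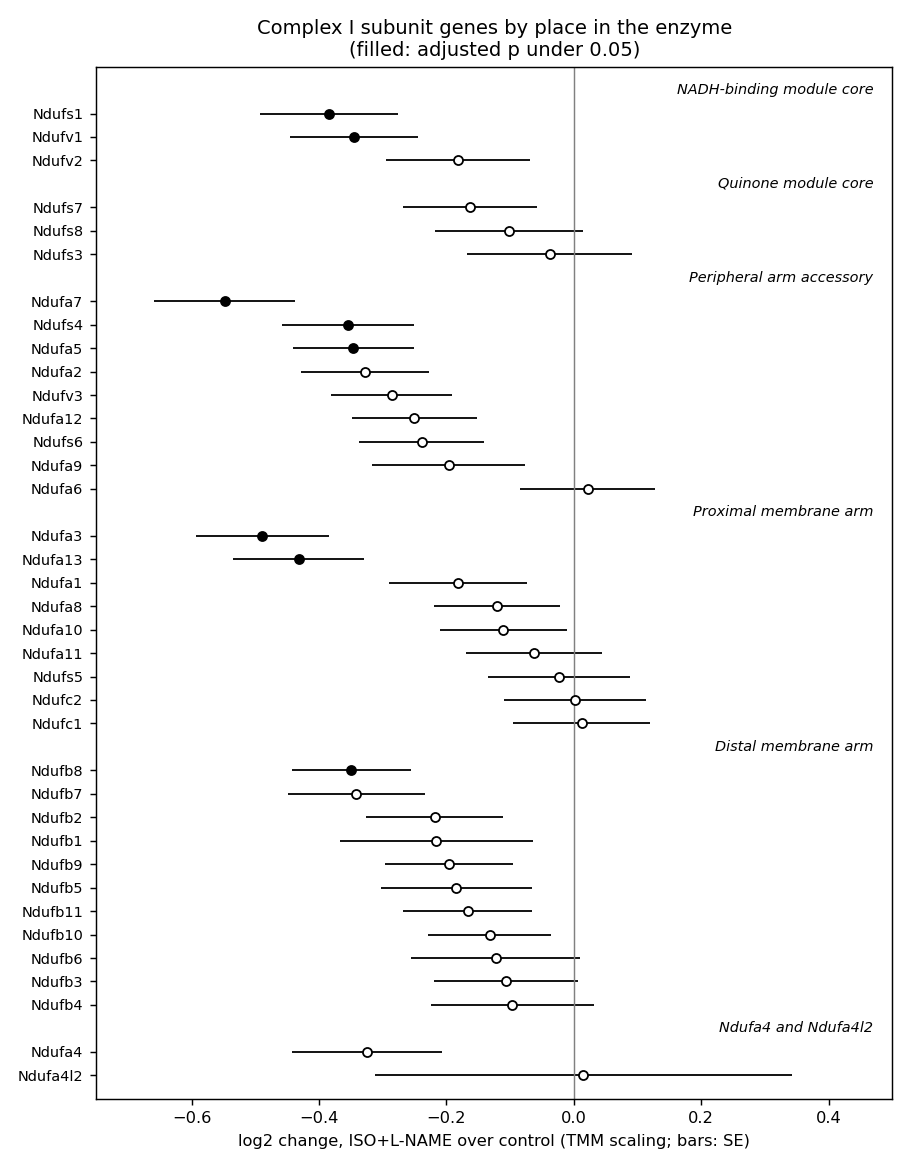
log2 change of 37 of the 38 tested members, ISO+L-NAME over control with TMM scaling (horizontal axis; bars are SE), grouped by place in complex I; filled points have an edgeR adjusted p under 0.05. The 8 filled points run from -0.55 (Ndufa7) to -0.34 (Ndufv1), and 34 of the 38 tested members lie below 0; scaled to all counts, 11 of 38 lie below 0.

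The 8 genes that fell are spread over 7 chromosomes, given here as whole-gene spans of the deposited table (GRCm39). The table places Ndufa7 (ENSMUSG00000041881) at chr17:34043546-34057291 on the plus strand, and Ndufa3 (ENSMUSG00000035674) at chr7:3620372-3623326 on the plus strand. The table places Ndufa13 (ENSMUSG00000036199) at chr8:70346830-70355208 on the minus strand, and Ndufs1 (ENSMUSG00000025968) at chr1:63182755-63215992 on the minus strand. The table places Ndufs4 (ENSMUSG00000021764) at chr13:114424331-114524794 on the minus strand, and Ndufb8 (ENSMUSG00000025204) at chr19:44537011-44543879 on the minus strand. The table places Ndufa5 (ENSMUSG00000023089) at chr6:24518665-24528012 on the minus strand, and Ndufv1 (ENSMUSG00000037916) at chr19:4057384-4062806 on the minus strand.

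The NADH-binding module holds the core subunits through which electrons enter, and 2 of its 3 core genes, Ndufv1 and Ndufs1, fell in edgeR and in limma-voom. With DESeq2 neither passed (adjusted p = 0.0543 for Ndufv1 and 0.0504 for Ndufs1). Ndufv1, which carries the flavin and binds NADH, had 354, 388 and 388 CPM in ISO+L-NAME hearts, against 462, 514 and 459 CPM in control hearts. The groups did not overlap, and the log2 change was -0.34 ± 0.10 (adjusted p = 0.0449). Ndufs1, the largest core subunit, which holds several iron-sulphur clusters, had 240.2, 261 and 226 CPM in ISO+L-NAME hearts, against 316, 345 and 288 CPM in control hearts. Every treated heart again lay below every control heart (log2 -0.38 ± 0.11, adjusted p = 0.0359). Ndufv2, an iron-sulphur subunit beside them, had 283, 318 and 284 CPM in ISO+L-NAME hearts, against 332, 382 and 291 CPM in control hearts, so that control 3 lay within the treated range, and it did not pass (log2 -0.18 ± 0.11, adjusted p = 0.444).

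The quinone module passes electrons on to ubiquinone. Its core genes Ndufs7, Ndufs8 and Ndufs3 had changes of -0.16 to -0.04, and 0 of the 3 passed in edgeR, DESeq2 or limma-voom, with 0 at an unadjusted p under 0.05 in each. Ndufs7, which carries the last iron-sulphur cluster of the chain, had 219, 231 and 248 CPM in ISO+L-NAME hearts and 263, 277 and 241 CPM in control hearts (log2 -0.16 ± 0.11, adjusted p = 0.471). Ndufs8, another iron-sulphur subunit, had 142, 157 and 150.3 CPM in ISO+L-NAME hearts and 163, 180.1 and 139 CPM in control hearts (log2 -0.10 ± 0.12, adjusted p = 0.722). Ndufs3, a core subunit without a cluster, had 165, 197 and 202 CPM in ISO+L-NAME hearts and 187.5, 232 and 159.8 CPM in control hearts (log2 -0.04 ± 0.13, adjusted p = 0.932). In these 3 genes the groups overlapped: control 2 was above every treated heart, while control 3 was below all of them for Ndufs8 and Ndufs3 and within their range for Ndufs7. Whether the NADH-binding and quinone modules differ from each other was not tested.

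Accessory subunits of the peripheral arm do no electron transfer themselves but stabilise the arm. Of 9 tested, 3 fell, 0 rose and 6 did not pass, with a median log2 change of -0.29. Ndufa7 had the largest change of the family: 208, 216 and 186 CPM in ISO+L-NAME hearts, against 288, 332 and 272 CPM in control hearts. It fell by 31.6%, with no overlap (log2 -0.55 ± 0.11, adjusted p = 0.00336). Ndufs4, whose loss in mice causes a fatal brain disease resembling Leigh syndrome, varied little within groups, with 153.5, 157 and 157 CPM in ISO+L-NAME hearts, against 194, 203 and 201 CPM in control hearts. The groups did not overlap, and the adjusted p was close to the threshold (log2 -0.35 ± 0.10, adjusted p = 0.0455). The small spread (SD 2.1 CPM in ISO+L-NAME hearts and 4.3 CPM in control hearts) rests on 3 libraries per group and is itself uncertain. Ndufa5, which sits on the quinone module, had 782, 780.4 and 769 CPM in ISO+L-NAME hearts, against 969.5, 1056 and 937.5 CPM in control hearts (log2 -0.35 ± 0.10, adjusted p = 0.0321).

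Ndufa2, a small subunit with a thioredoxin-like fold, just missed the threshold at log2 -0.33 ± 0.10 (adjusted p = 0.0565), with 492 to 590.1 CPM in ISO+L-NAME hearts and 662 to 686 CPM in control hearts. Ndufv3, Ndufa12 and Ndufs6 also had groups that did not overlap, at log2 -0.29, -0.25 and -0.24, without passing (adjusted p = 0.0831, 0.159 and 0.189). Ndufa9, a subunit that binds NADPH, overlapped between groups (log2 -0.20 ± 0.12). Of the 9 accessory genes of this arm, 8 lay below 0 with TMM scaling, and the other was Ndufa6. Its difference from them was not tested. This subunit, which docks an acyl carrier protein onto the enzyme, had 358, 366 and 378 CPM in ISO+L-NAME hearts and 368, 401 and 317 CPM in control hearts, with a log2 change of 0.02 ± 0.11 (adjusted p = 0.954).

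**Figure D2:**
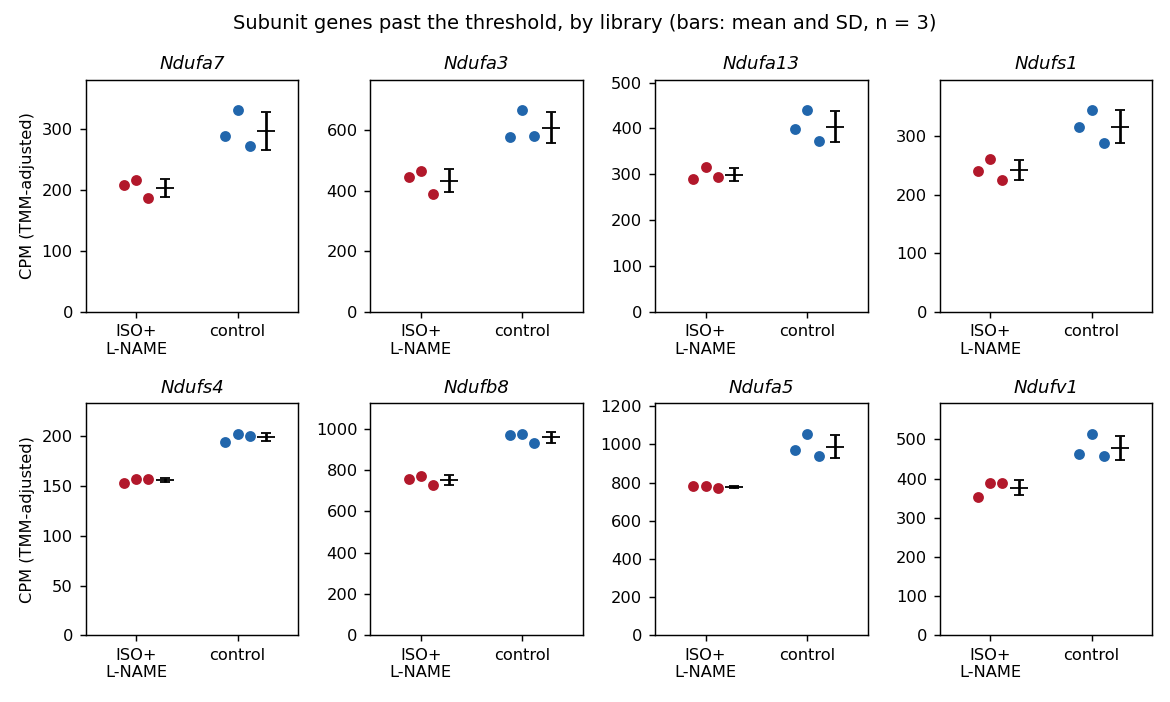
Level of the 8 members that passed the test, in CPM on TMM-adjusted library sizes (vertical axes, from 0), for each ISO+L-NAME heart (red) and each control heart (blue); bars are mean and SD, n = 3. In each panel the 3 treated hearts lie below the 3 control hearts, for example at 186 to 216 CPM against 272 to 332 CPM for Ndufa7; scaled to all counts these 8 changes kept their sign and none passed.

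The proximal membrane arm joins the peripheral arm to the pumping modules. Of 9 accessory genes there, 2 fell, 0 rose and 7 did not pass, with a median log2 change of -0.11. Ndufa3, a small membrane subunit at the junction, had 444, 465.5 and 390.2 CPM in ISO+L-NAME hearts, against 576, 667 and 581 CPM in control hearts. The highest treated heart was more than 100 CPM below the lowest control heart (log2 -0.49 ± 0.11, adjusted p = 0.00561). Ndufa13, also known for a role in interferon-induced cell death, had 290.0, 315 and 293 CPM in ISO+L-NAME hearts, against 399, 440.3 and 372.5 CPM in control hearts (log2 -0.43 ± 0.10, adjusted p = 0.0130). The gene lies wholly within the listed span of Yjefn3 on the same strand (8379 bases), which had 59 counts over the 6 libraries against 4957 for Ndufa13.

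The other 7 genes of this group ran from -0.18 to 0.01. Ndufc1, a single-pass membrane subunit, had 482, 524 and 577 CPM in ISO+L-NAME hearts and 492, 587 and 489.5 CPM in control hearts (log2 0.01 ± 0.11, adjusted p = 0.975). Its neighbour in the enzyme, Ndufc2, was at log2 0.00 ± 0.11, and Ndufs5, a disulphide-bonded subunit facing the intermembrane space, at -0.02 ± 0.11. The groups of all these overlapped. Ndufa8, another such subunit, had 318 to 333.5 CPM in ISO+L-NAME hearts and 338 to 364 CPM in control hearts, which did not overlap, and did not pass (log2 -0.12 ± 0.10, adjusted p = 0.597). The X-linked Ndufa1 was at -0.18 ± 0.11, Ndufa10 at -0.11 ± 0.10 and Ndufa11 at -0.06 ± 0.11.

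All 11 genes of the distal membrane arm, the Ndufb genes, lay below 0 with TMM scaling, from -0.35 to -0.10 with a median of -0.18, but only 1 passed the test. Scaled to all counts, 9 of the 11 lay above 0. Ndufb8, a membrane subunit often used as a protein marker of assembled complex I, had 758, 769.7 and 727 CPM in ISO+L-NAME hearts, against 969.5, 976 and 928 CPM in control hearts (log2 -0.35 ± 0.09, adjusted p = 0.0272). Ndufb7, which faces the intermembrane space, had a change of the same size with more spread, at 257 to 314 CPM in ISO+L-NAME hearts and 337 to 379.8 CPM in control hearts (log2 -0.34 ± 0.11, adjusted p = 0.0663). Ndufb10 varied little within groups, at 369 to 371 CPM in ISO+L-NAME hearts and 400.3 to 408 CPM in control hearts, and a small change (log2 -0.13 ± 0.10, adjusted p = 0.543). Ndufb2, Ndufb9 and Ndufb11 also had no overlap, at -0.22, -0.20 and -0.17. Ndufb1 spread widely, with 168 to 212 CPM in ISO+L-NAME hearts and 153.5 to 269 CPM in control hearts (log2 -0.22 ± 0.15). Ndufb5, Ndufb6, Ndufb3 and Ndufb4 overlapped as well, at -0.18 to -0.10.

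Outside the enzyme proper, Ndufa4 had 321, 375 and 386 CPM in ISO+L-NAME hearts, against 426, 532 and 397 CPM in control hearts, without overlap and without passing (log2 -0.32 ± 0.12, adjusted p = 0.122). Ndufa4l2 was nearly silent, at 24, 14 and 12 counts in ISO+L-NAME libraries and 15, 12 and 11 counts in control libraries (log2 0.02 ± 0.33, adjusted p = 0.990).

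Counted over the family, the CPM of the groups did not overlap for 19 of 38 members, in each case with treated hearts lower, and for 0 with treated hearts higher. Over all tested genes, 11.3% had no overlap with treated hearts lower and 11.4% with treated hearts higher. The peripheral arm as a whole had 5 of 16 genes called and a median of -0.25, and the membrane arm 3 of 20 and a median of -0.15. The difference between the arms was not tested. Relative to each gene's mean over the 6 libraries, the median member deviated by -0.17, -0.05 and -0.09 (log2) in ISO+L-NAME 1, 2 and 3, and by 0.09, 0.22 and -0.02 in control 1, 2 and 3. Control 3 was closer to the treated hearts than the other controls.

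Calls of single genes rested on few libraries. Ndufa7 and Ndufa3 passed whichever of the 6 libraries was left out, with adjusted p up to 0.0217 and 0.0392. Ndufa13 passed in 3 of the 6 such fits, Ndufa5, Ndufb8, Ndufs1 and Ndufv1 in 1, without control 3, and Ndufs4 in 0. The count of members that fell was 2 without ISO+L-NAME 1, control 1 or control 2, 3 without ISO+L-NAME 2 or 3, and 8 without control 3, where 2.02%, 1.37%, 2.05%, 1.58%, 1.63% and 2.48% of all tested genes fell, in the order named. DESeq2 called 5 members lower, where it called 1.62% of all genes lower and 2.31% higher; Ndufs1, Ndufv1 and Ndufs4 (adjusted p = 0.0904) did not pass there. The count was 8 with RLE scaling (2.57% of all genes lower), with a filter at a mean of 5 CPM (2.7%) and with mitochondrially encoded genes left out (2.51%). It was 9 with a robust fit (2.95%), with limma-voom (2.67% lower and 3.15% higher) and with the library sizes behind the deposited signal (2.8%), and 7 with no count filter (2.17%).

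The scaling of the libraries changed the direction. Messages of the mitochondrial genome made up a large share of the counts, which differed between the groups: 46.9% ± 1.21 in ISO+L-NAME hearts and 55.1% ± 1.53 in control hearts (SD, n = 3). Summed nuclear complex I counts were 1.49%, 1.53% and 1.48% of all counts in ISO+L-NAME hearts, against 1.41%, 1.47% and 1.40% in control hearts. On that scale treated hearts were 1.05 times as high, without overlap. As a share of the counts outside mitochondrially encoded genes, the same sums were 2.73%, 2.92% and 2.81% in ISO+L-NAME hearts, against 3.12%, 3.38% and 3.01% in control hearts. There treated hearts were 0.890 times as high as control hearts, also without overlap. The direction of the summed level turned with the denominator.

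**Figure D3:**
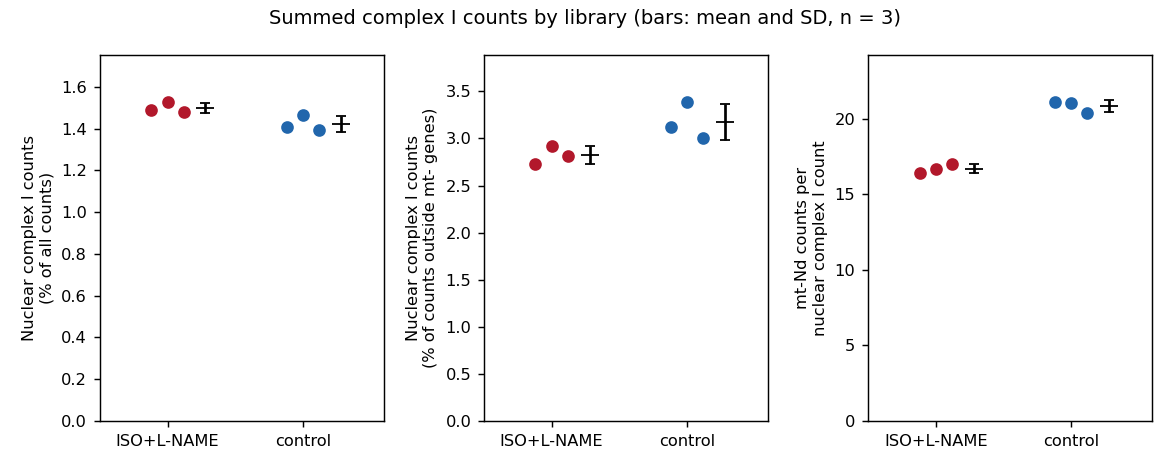
Summed counts of the nuclear complex I genes as a percentage of all counts (left) and of counts outside mitochondrially encoded genes (middle), and mt-Nd counts per nuclear complex I count (right), for each ISO+L-NAME heart (red) and control heart (blue); axes start at 0, bars are mean and SD, n = 3. Treated hearts lie above control hearts on the left (1.48% to 1.53% against 1.40% to 1.47%) and below them in the middle (2.82% against 3.17%) and on the right (16.7 against 20.8).

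The tests followed the same order. Scaled to all counts, 0 members fell and 2 rose, Ndufa6 (log2 0.33, adjusted p = 0.0277) and Ndufc1 (log2 0.32, adjusted p = 0.0313), where 0.844% of all genes fell and 16.5% rose. The 8 members called with TMM scaling stayed below 0 there, between -0.24 for Ndufa7 and -0.04 for Ndufv1 and Ndufa5, and none passed. Scaled to counts outside mitochondrially encoded genes, 3 members fell, Ndufa7, Ndufa3 and Ndufa13, and 0 rose, where 1.68% of all genes fell and 4.0% rose, and the members' median was -0.13. The members' median lay 0.18 below that of all genes under each of these scalings, a gap that a change of scaling leaves nearly as it is by construction.

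**Figure D4:**
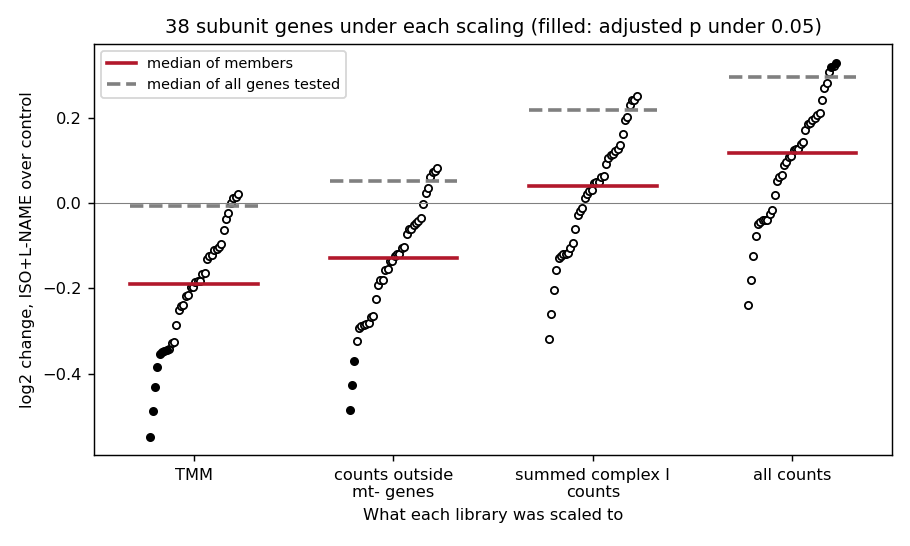
log2 change of the 38 tested members, ISO+L-NAME over control (vertical axis), under 4 scalings of the libraries (horizontal axis); filled points have an edgeR adjusted p under 0.05, and lines are the medians of the members (red) and of all tested genes (grey, dashed). The members' median runs from -0.19 with TMM to 0.12 with all counts and stays 0.18 below the median of all genes.

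A ratio within a library does not depend on scaling. The mt-Nd messages encode the core of the membrane arm. Their summed counts per nuclear subunit count were 16.4, 16.6 and 17.0 in ISO+L-NAME hearts. In control hearts they were 21.1, 21.0 and 20.4. The mean ratio was 0.801 times as high in treated hearts, and leaving out any 1 library kept it between 0.793 and 0.808. With TMM scaling 4 of 7 mt-Nd messages fell (median log2 -0.64). These were mt-Nd4l at -1.19 ± 0.09, mt-Nd5 at -0.82 ± 0.10, mt-Nd4 at -0.64 ± 0.09 and mt-Nd1 at -0.51 ± 0.09 (edgeR adjusted p = 2.2e-07, 1.82e-05, 5.99e-05 and 0.00137). Not called were mt-Nd6 at -0.65 ± 0.28, mt-Nd3 at -0.35 ± 0.11 and mt-Nd2 at -0.31 ± 0.10 (edgeR adjusted p = 0.212, 0.0757 and 0.0828). The summed ratio weighs mt-Nd4 most, as it had the most counts of the 7, and ratios of single messages were not computed. The listed span of mt-Nd4l (9877 to 10173) overlaps that of mt-Nd4 (10167 to 11544) on the same strand. They had 54654 and 2112184 counts over the 6 libraries, and how reads were divided between them is not known. The median of the list was -0.33 scaled to all counts and -0.41 scaled to the summed complex I counts, with 4 of 7 called under each, and limma-voom called 6 of 7.

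Scaled to their own summed counts, the members could be compared with each other. Their sum is then held equal between libraries, so lower shares of some members come with higher shares of others by construction. On that scale 0 members passed in either direction in edgeR, where 0.922% of all genes fell and 8.42% rose. At an unadjusted p under 0.05 there were 4, of which 2 were lower and 2 higher. The share of all genes at that level was not counted, and other tools were not run on that scale. As a share of all nuclear complex I counts, Ndufa7 had 1.59%, 1.53% and 1.36% in ISO+L-NAME hearts, against 1.84%, 1.93% and 1.83% in control hearts. Ndufa13 had 2.22%, 2.23% and 2.15% in ISO+L-NAME hearts, against 2.54%, 2.56% and 2.50% in control hearts. In the other direction, Ndufa6 had 2.74%, 2.59% and 2.77% in ISO+L-NAME hearts, against 2.34%, 2.33% and 2.13% in control hearts, and Ndufc1 3.69%, 3.71% and 4.22% against 3.13%, 3.41% and 3.29%. In all, the groups did not overlap for 7 members with the lower share in treated hearts and for 8 with the higher share, where 3.05% and 26.1% of all tested genes did the same. All tested genes together are not held to that sum, so the split among members is not like theirs.

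Promoters are shown because nuclear respiratory genes are known to share binding sites for a few factors, among them NRF1 and YY1. RefSeq windows (GRCm38.p6) from 250 bases before to 50 after the transcript start were found for 33 of the 39 members, 35 windows in all. The NRF1 motif searched was GCGC, any base and TGCGC in a row, on either strand, and it occurred in 22.9% of the members' windows, against 10.6% of the windows of tested genes and 4.60% of all windows. Among members past the threshold 1 of 7 with a window had it, Ndufa5, and among the rest 6 of 26. The stretches of 30 bases around these sites are given so that they can be set side by side, with the motif in capitals.
Ndufa5, chr6:24527697-24527726, minus strand: tgtgtgagctGCGCAGGCGCaaatctacct
Ndufa8, chr2:36049349-36049378, minus strand: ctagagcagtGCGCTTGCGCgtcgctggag
Ndufs5, chr4:123718265-123718294, minus strand: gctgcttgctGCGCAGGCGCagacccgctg
Ndufs6, chr13:73328479-73328508, minus strand: cgactgctgtGCGCCTGCGCcggcacttgg
Ndufa6, chr15:82354249-82354278, minus strand: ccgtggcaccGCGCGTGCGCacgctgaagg
Ndufa11, chr17:56717692-56717721, plus strand: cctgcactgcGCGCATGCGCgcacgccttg
Ndufb4, chr16:37654540-37654569, minus strand: gagaagcagtGCGCACGCGCagaatacgcg
Ndufb4, chr16:37654428-37654457, minus strand: ccttgtgcgcGCGCAGGCGCacttcctgag
Ndufb4, chr16:37654371-37654400, minus strand: cctcatatccGCGCAGGCGCagatgtgcgc

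The YY1 motif AAGATGGCG, on either strand, occurred in 14.3% of the members' windows, against 3.53% of the windows of tested genes and 1.40% of all windows. It was found in 5 members, each time on the gene's own strand and starting 22 to 35 bases after the transcript start. Of these, Ndufs4 passed the test.
Ndufs4, chr13:114388045-114388074, minus strand: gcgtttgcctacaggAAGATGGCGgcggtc
Ndufs6, chr13:73328433-73328462, minus strand: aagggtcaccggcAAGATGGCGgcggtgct
Ndufs7, chr10:80249463-80249492, plus strand: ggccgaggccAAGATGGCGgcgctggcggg
Ndufa9, chr6:126849096-126849125, minus strand: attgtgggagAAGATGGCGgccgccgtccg
Ndufc1, chr3:51408914-51408943, minus strand: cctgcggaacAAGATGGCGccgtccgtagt

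Of the other motifs searched, the SP1 motif GGGCGG occurred in 42.9% of them, against 64.3% of the windows of tested genes, the ETS motif CCGGAAGT in 2.86% against 8.69%, and the ERR motif TCAAGGTCA in 0 of 35 windows against 0.226%. The 250 bases before the transcript start are printed for Ndufa7 and Ndufa3, the members that passed whichever library was left out, and for Ndufa5, the most abundant, with any of the 5 motifs in capitals. Ndufa7 held none of them there, Ndufa3 the SP1 motif and Ndufa5 the NRF1 motif. A match is a run of letters and not evidence of binding.
Ndufa7, chr17:33824322-33824571, plus strand: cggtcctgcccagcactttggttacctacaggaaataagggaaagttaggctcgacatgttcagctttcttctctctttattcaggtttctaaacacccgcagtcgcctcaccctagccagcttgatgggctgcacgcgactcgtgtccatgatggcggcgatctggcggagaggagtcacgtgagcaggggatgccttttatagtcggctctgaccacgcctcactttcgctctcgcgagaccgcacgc
Ndufa3, chr7:3617123-3617372, plus strand: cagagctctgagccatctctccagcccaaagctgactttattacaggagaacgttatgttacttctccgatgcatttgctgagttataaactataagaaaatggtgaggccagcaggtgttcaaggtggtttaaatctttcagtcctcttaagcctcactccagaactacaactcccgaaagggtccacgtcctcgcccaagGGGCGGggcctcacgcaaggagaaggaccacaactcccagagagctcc
Ndufa5, chr6:24527691-24527940, minus strand: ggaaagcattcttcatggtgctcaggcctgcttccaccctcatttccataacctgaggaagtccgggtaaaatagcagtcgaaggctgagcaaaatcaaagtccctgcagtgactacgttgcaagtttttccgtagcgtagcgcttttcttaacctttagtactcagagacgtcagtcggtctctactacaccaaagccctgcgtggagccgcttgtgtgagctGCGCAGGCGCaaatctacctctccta

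Assembly factors build the enzyme but are not part of it. Of 20 listed, 18 were tested and 0 passed in edgeR, DESeq2 or limma-voom, with 2, 1 and 2 lower at an unadjusted p under 0.05, and a median log2 change of -0.07. At that unadjusted level the share of all genes was not counted. Those furthest from 0 were Foxred1, an oxidoreductase-like factor, at -0.41 ± 0.18 (adjusted p = 0.219), and Dmac1, a factor of the distal membrane arm, at 0.38 ± 0.24 (adjusted p = 0.452). Ndufaf8 had 55.4 to 62.9 CPM in ISO+L-NAME hearts and 71.2 to 81.1 CPM in control hearts (log2 -0.36 ± 0.12, adjusted p = 0.0990). Summed over the list, they had 430.2 to 485 CPM in ISO+L-NAME hearts and 438 to 505 CPM in control hearts.

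Regulators of mitochondrial gene expression were not called. Of 12 listed, 10 were tested and 0 passed in edgeR, DESeq2 or limma-voom, with 0 at an unadjusted p under 0.05 in each, and their median was 0.09. The coactivator gene Ppargc1a had 81.7, 132 and 141 CPM in ISO+L-NAME hearts and 104, 121 and 88.1 CPM in control hearts (log2 0.17 ± 0.17, adjusted p = 0.659). Esrra, an orphan nuclear receptor that acts with it, was at 0.32 ± 0.17 (adjusted p = 0.354), and Gabpa, an ETS factor, at -0.32 ± 0.25 (adjusted p = 0.573). The genes of the factors whose motifs were searched, Nrf1 and Yy1, were at -0.03 ± 0.29 and 0.07 ± 0.17 (adjusted p = 0.977 and 0.887).

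Markers of other cell types moved with the treatment. Summed over 8 markers each, macrophage genes had 330.2 to 401 CPM in ISO+L-NAME hearts and 159 to 206 CPM in control hearts, with 5 of 8 tested higher. Fibroblast genes had 1004 to 1451 CPM in ISO+L-NAME hearts and 530.4 to 809.5 CPM in control hearts, with 4 of 7 tested higher. These 4 were Col1a1, Col1a2, Col3a1 and Lum. Dcn, Dpt and Pdgfra (log2 0.17, edgeR adjusted p = 0.798) did not pass, and Tcf21 was not tested. Cardiomyocyte markers moved both ways: 4 of 10 fell, among them Myl3 (0.697 times control) and Mb (0.771 times), 2 rose, Ryr2 (1.34 times) and Actc1 (log2 0.32), and the median log2 change was -0.16. Endothelial markers had 998 to 1020 CPM in ISO+L-NAME hearts and 982 to 1165 CPM in control hearts, with 0 of 7 called in edgeR. Mural markers had 1 of 6 higher and 1 lower, at 447 to 488 CPM in ISO+L-NAME hearts and 370.3 to 514 CPM in control hearts. Red blood cell genes had 4016 to 4992 CPM in ISO+L-NAME hearts and 4338 to 6062 CPM in control hearts, with 0 of 4 called in edgeR. None of 5 lymphocyte and 3 adipocyte markers had enough counts to be tested. The lymphocyte sum was 0.388 to 1.18 CPM in ISO+L-NAME hearts and 0.912 to 2.002 CPM in control hearts, and Adipoq and Plin1 were at 0 in all libraries. In bulk tissue, fewer cardiomyocytes and less complex I message per cardiomyocyte cannot be told apart, and the part of these markers in the changes was not tested.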

How the data were processed

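Heart RNA of 6 mice was read with a QuantSeq 3′ kit, per the labels' protocols. Per the file headers, the deposited values are counts by gene, whole numbers, and a scaled signal under the name CPM. Each deposited signal column is the counts times 1 constant, and supplied library sizes for 1 alternative. The submitters' processing notes name bcl2fastq and GRCm39; the sources used here name no aligner, counter, annotation or handling of strand and molecular identifiers, so reads shared with overlapping genes or near-identical copies are uncertain.

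Genes were filtered with filterByExpr (minimum count 10, total 15), given TMM factors of 0.857 to 1.15, and compared with group as the only factor by glmQLFTest of edgeR 4.0.16 (R 4.3.3). SE was taken as |log2 change| divided by √F. The test was checked on simulated counts. It called 3 of 48 genes changed 1.25-fold, 13 of 49 changed 1.5-fold and 34 of 48 changed 2-fold. Of its 107 calls 7 were false. These genes were drawn from all tested genes, most of them at levels below those of the members. A gene at such levels that did not pass can still have changed by such folds. How often such folds would be found at the members' levels was not simulated, and members that did not pass can still have changed. Within groups, pairs of libraries had chi-square/df of 2.1 to 3.42, so no library was a duplicate. DESeq2 1.42.0 and limma-voom (limma 3.58.1) were among the alternatives.

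Values per library are given for called members, the core nuclear subunits, the highest and lowest member, the 3 largest changes in each direction, Ndufa4 and Ndufa4l2; some others are given by range, and 1 member counted in the totals is not reported here. The members and lists were chosen with earlier results of these data known. Promoter windows were matched by symbol, for 6803 of the 8531 tested genes; their coordinates are on GRCm38.p6, not the build of the counts.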

Additional observations from a re-analysis of the deposited data

How the results depend on the processing

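The number of members that fell was 8, and it stayed at 7 to 9 with RLE scaling, a robust fit, no count filter, a filter at a mean of 5 CPM, limma-voom, mitochondrially encoded genes left out before TMM, and the library sizes implied by the deposited signal. It was 5 with DESeq2, 3 with library sizes taken from counts outside mitochondrially encoded genes, 0 with all counts (2 rose) and 0 when scaled to the summed complex I counts. Leaving out 1 library gave 2 to 8. The members' median was 0.12 with all counts and 0.0402 when scaled to the summed complex I counts. Scaling to that sum holds the family as a whole near 0 by construction. With all counts, 2 of 18 tested assembly factors and 2 of 10 tested regulators rose, where 16.5% of all tested genes rose. The summed share of treated over control hearts was 0.890 with counts outside mitochondrially encoded genes and 1.05 with all counts. The deposited sizes, the counts outside mitochondrially encoded genes and the complex I sum were chosen as scalings after seeing the data; the cause of these differences was not tested beyond the scaling itself.

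Genes near 0 changed sign. With all counts Ndufs3 was at 0.27, Ndufs7 at 0.14, Ndufs8 at 0.21 and Ndufv2 at 0.13. Scaled to the complex I sum, Ndufs3 was at 0.19, Ndufs7 at 0.0643, Ndufs8 at 0.13 and Ndufv2 at 0.0489, and with counts outside mitochondrially encoded genes Ndufs3 was at 0.0236. Ndufa4l2 was at -0.0198 with limma-voom and -0.0005 with the replicate block. Leaving out 1 library gave -0.25 to 0.17 for Ndufa4l2, -0.0708 to 0.0916 for Ndufa6, -0.0572 to 0.0949 for Ndufc1 and -0.16 to 0.11 for Ndufs3.

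The replicate numbers are shared between groups, but same-numbered hearts did not deviate together (correlations 0.0608, -0.028 and -0.0143 over tested genes). A pairing that acts on few genes would not show in these correlations, so whether the numbers mark one is not known. With the replicate number as a block 7 members fell (2.82% of all tested genes did), Ndufs4 being lost (adjusted p = 0.0606), the median was -0.18, and 6 of 7 mt-Nd messages fell, against 4 without the block.

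Depth limits Ndufa4l2, which had 88 counts over the 6 libraries; other tested members were far more deeply counted. With mitochondrially encoded genes left out, the mt-Nd messages gave no value.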
